A study of Mus musculus with 32 samples.

Results

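The comparison described here is that of ACSS2 knockout (KO) with wild-type (WT) mice in the dorsal hippocampus after prenatal ethanol. Its members are the libraries labelled as coming from dorsal hippocampus with ethanol as the prenatal exposure, which are 8 of the 32 libraries of the series, with 4 KO and 4 WT. All mice were C57BL/6J offspring of dams that spent 5 nights with a stud and then received 1 intraperitoneal injection a day until birth, of 3 g per kg ethanol (20% by volume in saline) for these groups. The offspring were weaned at postnatal day 21, housed with mice of their own genotype, sex and exposure, and killed at postnatal day 40 to 50. Each group held 2 males (M1, M3) and 2 females (F1, F3), which the labels give as separate mice. The comparison was set beside 8 saline-exposed hippocampal libraries (KO and WT, 4 each), whose dams were injected with saline, and 8 libraries of cerebellar vermis from the same ethanol-exposed mice. The labels give the genotype as KO or WT, and not the allele, the genotype of the dams, the litters or the time of day at death.

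ACSS2 is an enzyme that joins acetate, the end product of ethanol breakdown in the liver, to coenzyme A. The acetyl-CoA it makes in the cytosol and nucleus feeds lipid synthesis and the acetylation of histones. Much of what follows concerns a pair of transcriptional systems. In the circadian clock, CLOCK and BMAL1 bind E-boxes and drive their own repressors (the Per and Cry genes, Ciart, Nr1d1) and output genes such as Dbp, so these transcripts rise and fall with the time of day. Glucocorticoids, the stress hormones of the adrenal gland, also follow the day, act through a receptor that binds DNA as a dimer, and induce genes such as Tsc22d3, Sgk1 and Per1.

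Acss2 itself (ENSMUSG00000027605, chromosome 2, GRCm39, forward strand, first listed exon 155359868 to 155360204) was low in every KO library. Its level in CPM (counts per 1000000, scaled to the effective size of the library) was 11.6, 10.6, 11.5 and 12.1 in KO M1, M3, F1 and F3, against 62.6, 55.5, 54.9 and 59.6 in WT M1, M3, F1 and F3. The groups were far apart, with a KO mean of 19.8% of the WT mean. The log2 difference was -2.34, and an exact two-sided permutation test gave p = 0.0286, the smallest that the 70 splits of 4 against 4 allow. The remaining counts were unevenly spread over the transcript models. The model that begins at 155391141, with a retained intron, had 0 counts in each of the 4 KO libraries, against 514, 465, 366 and 426 in the WT libraries. A 0 allows up to 3 counts per library if counts are independent, and more here, because both mates of a read pair added to a count. The models that begin further downstream, at 155410470 and 155414782, stood at 125% and 121% of WT. The models share exons, so their values are not independent of each other.

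Total counts ran from 54092519 to 76143019 over the 8 libraries, so that 1 CPM stands for 54.1 to 76.1 counts. Markers of dentate granule neurons averaged 5.17 to 6.43 log2 CPM in KO and 5.75 to 6.16 in WT libraries, and those of CA1 pyramidal neurons 5.36 to 6.01 in KO and 5.73 to 6.11 in WT. Markers of cerebellar neurons averaged 1.87 to 3.82 in KO and 0.79 to 3.81 in WT libraries. Libraries differed in neighbouring tissue. Choroid plexus markers averaged 0.99, 5.25, 5.02 and 1.43 log2 CPM in KO M1, M3, F1 and F3, against 3.66, 2.98, 2.81 and 4.68 in WT M1, M3, F1 and F3, and choroid plexus genes such as Kcnj13 and Ttr, with the sex-linked genes Xist, Eif2s3y and Kdm5d, were among the highest loadings of the first principal component of the 16 hippocampal libraries (22.4% of the variance). Thalamic and habenular markers averaged 2.54 to 3.30 log2 CPM in KO and 2.14 to 4.85 in WT libraries. In bulk tissue, fewer cells of a type and less RNA per cell cannot be told apart.

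Of 23394 genes tested, 2320 had an unadjusted p under 0.05 (9.92%) and 40 differed between KO and WT in the ethanol-exposed hippocampus (0.171%), with 14 higher (0.0598%) and 26 lower (0.111%) in KO. A gene was called when its adjusted p was under 0.05 (edgeR quasi-likelihood test with sex as a covariate, Benjamini-Hochberg over all genes tested). The lower genes included Acss2 and the clock genes Dbp, Ciart, Per3, Nr1d1 and Per1. They also included the glucocorticoid-responsive genes Hif3a, Tsc22d3, Nfkbia, Sgk1 and Map3k6, and 10 of the 26 belonged to these 2 lists. The lists here and below were chosen with earlier results of these data known. Counts of their members therefore describe the lists and do not test them as groups. The higher genes included Calr and Pdia6, which encode chaperones of the endoplasmic reticulum, Cldn5 of the endothelial tight junction and the microglial receptor Cx3cr1. Changes were modest in size: the log2 fold changes of the higher genes ran from 0.32 to 1.78 with a median of 0.52, and those of the lower genes from -2.34 to -0.38 with a median of -0.61. In all 40 genes the KO and WT values did not overlap, as in 1577 genes of all those tested (6.74%). The median over all genes was 0.0071.

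**Figure D1:**
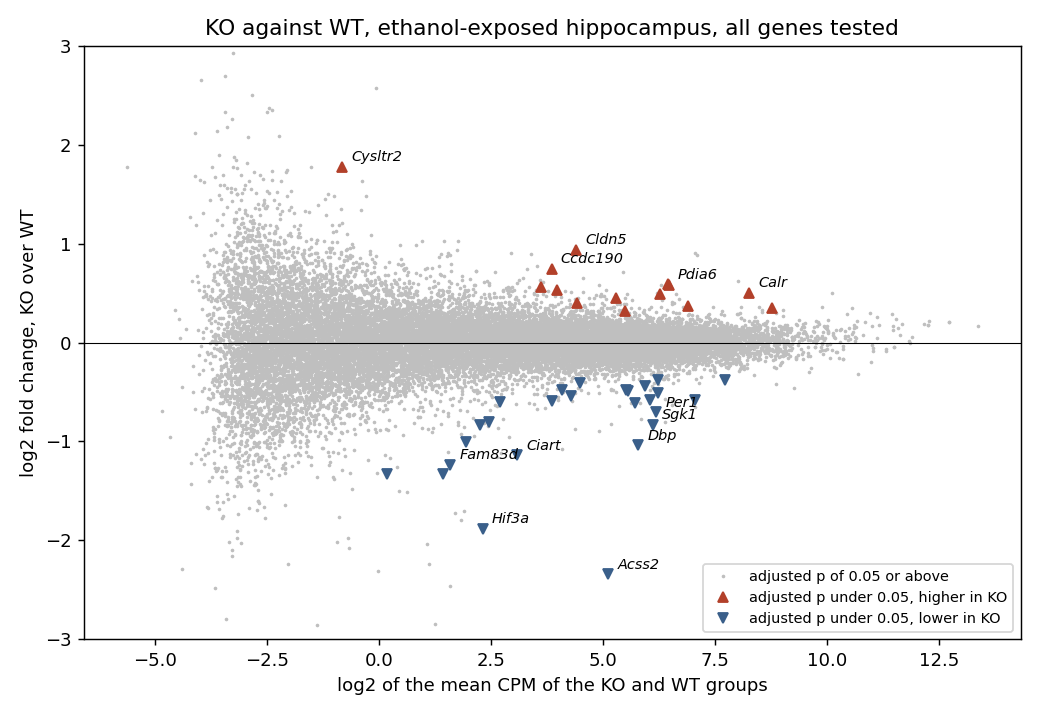
Log2 fold change of KO over WT against the log2 of the mean CPM, 1 point per gene tested in ethanol-exposed hippocampus. Upward triangles are the 14 genes called higher and downward triangles the 26 called lower, with Acss2 at -2.34 and Hif3a at -1.88. The 3 genes beyond a log2 fold change of 3 in either direction are outside the axis.

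The number of calls depended on single libraries. It was 29, 23, 20 and 18 with KO M1, M3, F1 or F3 left out, and 7, 6, 7 and 27 with WT M1, M3, F1 or F3 left out. The calls higher in KO numbered 15, 6, 3 and 7 without KO M1, M3, F1 or F3. They numbered 0, 0, 1 and 8 without WT M1, M3, F1 or F3. Acss2, Dbp, Hif3a, Ciart, Per3 and Polr3e passed with each of the 8 libraries left out in turn, and a further 6 genes (Nfkbia, Calr, Ccdc190, Nr1d1, Pdia6 and Tsc22d3) in at least 5 of the 8. With the 8 libraries fitted without the saline groups, 8 genes passed, all lower in KO, and DESeq2 called 233 genes (113 higher, 120 lower).

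**Figure D2:**
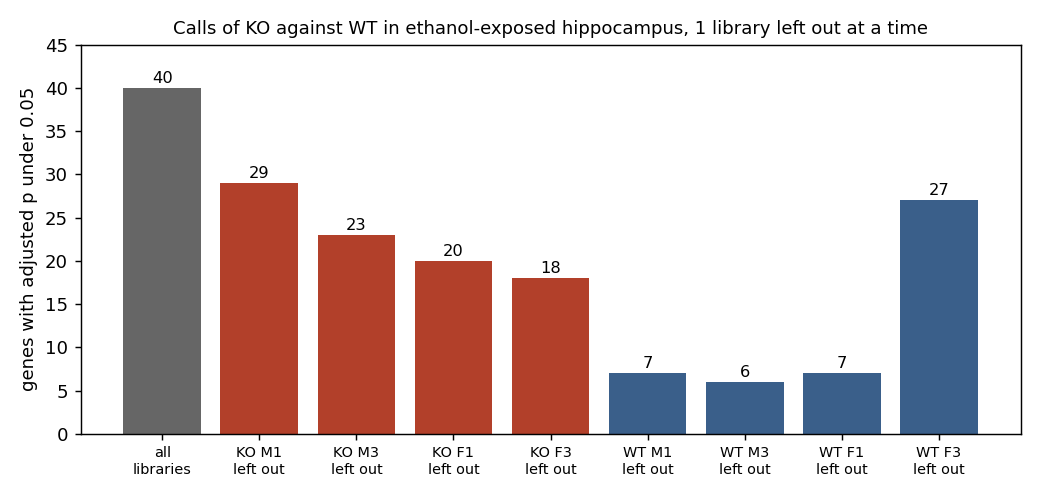
Number of genes called between KO and WT in ethanol-exposed hippocampus (vertical axis), with all libraries and with each KO and then each WT library left out (horizontal axis). The count is 40 with all libraries and falls to 6 without WT M3 and to 7 without WT M1 or WT F1.

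Clock genes were the first group among the lower calls. Of 23 tested, 5 were called and all were lower in KO, 16 had negative fold changes and the median was -0.11. At an unadjusted p under 0.05, 8 were lower and 2 higher, against 4.60% and 5.32% of all genes. The same shares of all genes apply to the counts at this threshold in the later lists. The mean of the list was 5.36 to 5.51 log2 CPM in KO libraries and 5.59 to 5.76 in WT libraries, without overlap.

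Dbp (ENSMUSG00000059824), a transcription factor of the clock output that binds D-boxes, was at 34.7, 32.5, 43.9 and 33.8 CPM in KO M1, M3, F1 and F3, against 73.5, 82.4, 72.1 and 68.9 CPM in WT M1, M3, F1 and F3. The highest KO library lay well below the lowest WT library. Its mean was 36.3 ± 5.21 CPM in KO and 74.2 ± 5.79 CPM in WT (SD, n = 4 each), with a log2 fold change of -1.04 ± 0.11 (SE) and an adjusted p of 0.000496. Of its exonic bases 18.0% overlap Sphk2 on the opposite strand in GENCODE M21, and Sphk2, whose log2 fold change was -0.017, did not pass.

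Ciart, a repressor of CLOCK and BMAL1, was at 5.40, 4.26, 5.35 and 6.46 CPM in KO M1, M3, F1 and F3 and at 11.9, 10.9, 12.9 and 11.2 CPM in WT M1, M3, F1 and F3. The KO values again lay below all WT values (log2 fold change -1.14 ± 0.15, adjusted p = 0.00409). Per1 and Per3, period genes of the negative limb, differed less. Per1 was at 53.4, 48.7, 52.1 and 69.2 CPM in the KO libraries against 84.7, 87.8, 103.9 and 87.2 CPM in the WT ones, in the same library order, and fell by 0.71 on the log2 scale (adjusted p = 0.0173). Per3 was at 43.0, 37.9, 35.2 and 41.2 CPM in KO against 53.5, 53.4, 54.2 and 60.0 CPM in WT (log2 fold change -0.49 ± 0.070, adjusted p = 0.00949). KO F3 was the highest KO library for Per1 and for Ciart. Nr1d1, which encodes the repressor REV-ERB alpha, averaged 53.0 ± 4.10 CPM in KO and 78.8 ± 7.08 CPM in WT (log2 fold change -0.58, adjusted p = 0.0132).

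Other members of the loop did not pass. Per2 averaged 32.01 ± 3.13 CPM in KO and 50.1 ± 3.76 in WT (log2 fold change -0.64, adjusted p = 0.0794), and Nr1d2, the paralog of Nr1d1, 80.8 ± 6.04 in KO and 107 ± 11.2 in WT (-0.41, adjusted p = 0.0886). Bmal1, which REV-ERB proteins repress, averaged 35.0 ± 6.09 CPM in KO and 27.4 ± 2.00 in WT (0.35, adjusted p = 0.309). Nfil3, a repressor at D-boxes, averaged 11.03 ± 1.46 in KO and 7.95 ± 1.06 in WT (0.47, adjusted p = 0.131). Clock, Cry1 and Npas2 had log2 fold changes of 0.026, -0.043 and -0.061.

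RefSeq promoter windows (GRCm38.p6, from 250 bases before to 50 bases after the annotated start) were searched on both strands for the E-box CACGTG, the D-box TTATGTAA and its variant TTACGTAA, the cAMP response element TGACGTCA and the glucocorticoid element, written as GNACA and TGTNC with any 3 bases between them (N, any base). The E-box was in 7.15% of 32851 windows, the D-box in 0.938%, the variant in 0.119%, the cAMP response element in 1.79% and the glucocorticoid element in 0.475%. Counted by gene, over the windows of each, the shares were 8.09%, 1.11%, 0.126%, 2.03% and 0.537% in the same order. Windows were available for 20 of the 26 lower genes and 9 of the 14 higher ones. Among the lower genes Ciart, Klf15, Per1, Polr3e and Sgk1 held an E-box, Per3 a D-box, and Sgk1 and Map3k6 a glucocorticoid element, and among the higher genes Calr held an E-box. The windows of 5 lower genes are shown because they hold repeated or rare matches, which are in capitals and are descriptions of sequence only.
The Ciart window (chr3:95882179-95882478, reverse strand) holds 3 E-boxes, that of Klf15 (chr6:90462326-90462625, forward strand) 3 E-boxes, that of Per3 (chr4:151044616-151044915, reverse strand) 2 D-boxes, the fifth of 6 windows of Sgk1 (chr10:21993640-21993939, forward strand) an E-box and a glucocorticoid element, and that of Map3k6 (chr4:133240568-133240867, forward strand) a glucocorticoid element.
Ciart: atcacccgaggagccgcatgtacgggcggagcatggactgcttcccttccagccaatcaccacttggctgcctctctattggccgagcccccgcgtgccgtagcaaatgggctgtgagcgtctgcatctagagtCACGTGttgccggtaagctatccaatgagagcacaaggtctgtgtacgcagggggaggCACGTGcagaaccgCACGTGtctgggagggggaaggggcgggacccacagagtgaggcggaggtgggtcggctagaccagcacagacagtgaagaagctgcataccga
Klf15: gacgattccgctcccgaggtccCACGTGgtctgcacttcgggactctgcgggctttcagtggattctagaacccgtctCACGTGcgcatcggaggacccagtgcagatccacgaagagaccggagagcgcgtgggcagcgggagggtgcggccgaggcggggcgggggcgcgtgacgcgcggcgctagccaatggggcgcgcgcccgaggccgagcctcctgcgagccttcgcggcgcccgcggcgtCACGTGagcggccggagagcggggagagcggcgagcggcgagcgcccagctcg
Per3: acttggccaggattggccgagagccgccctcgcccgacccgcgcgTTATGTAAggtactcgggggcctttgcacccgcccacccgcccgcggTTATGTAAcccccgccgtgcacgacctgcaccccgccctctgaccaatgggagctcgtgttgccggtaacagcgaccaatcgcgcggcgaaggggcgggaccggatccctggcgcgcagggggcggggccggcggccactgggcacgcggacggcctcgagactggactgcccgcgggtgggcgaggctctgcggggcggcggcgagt
Sgk1: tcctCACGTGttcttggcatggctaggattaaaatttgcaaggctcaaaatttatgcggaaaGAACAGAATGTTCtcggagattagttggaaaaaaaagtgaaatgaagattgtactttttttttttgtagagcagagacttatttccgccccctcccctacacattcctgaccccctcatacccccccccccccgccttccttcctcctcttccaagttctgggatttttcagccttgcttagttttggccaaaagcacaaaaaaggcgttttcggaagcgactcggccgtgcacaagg
Map3k6: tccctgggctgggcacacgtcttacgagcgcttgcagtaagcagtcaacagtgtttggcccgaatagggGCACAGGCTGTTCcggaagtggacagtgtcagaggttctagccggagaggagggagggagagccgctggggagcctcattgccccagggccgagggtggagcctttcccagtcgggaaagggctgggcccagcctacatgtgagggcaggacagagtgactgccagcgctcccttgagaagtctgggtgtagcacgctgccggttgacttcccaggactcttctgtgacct
The E-boxes of Ciart begin at -116, -58 and -44 from the annotated start, and the D-boxes of Per3 at -205 and -158. The windows of Dbp, Hif3a, Tsc22d3, Nr1d1 and Nfkbia held none of these motifs.

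**Figure D3:**
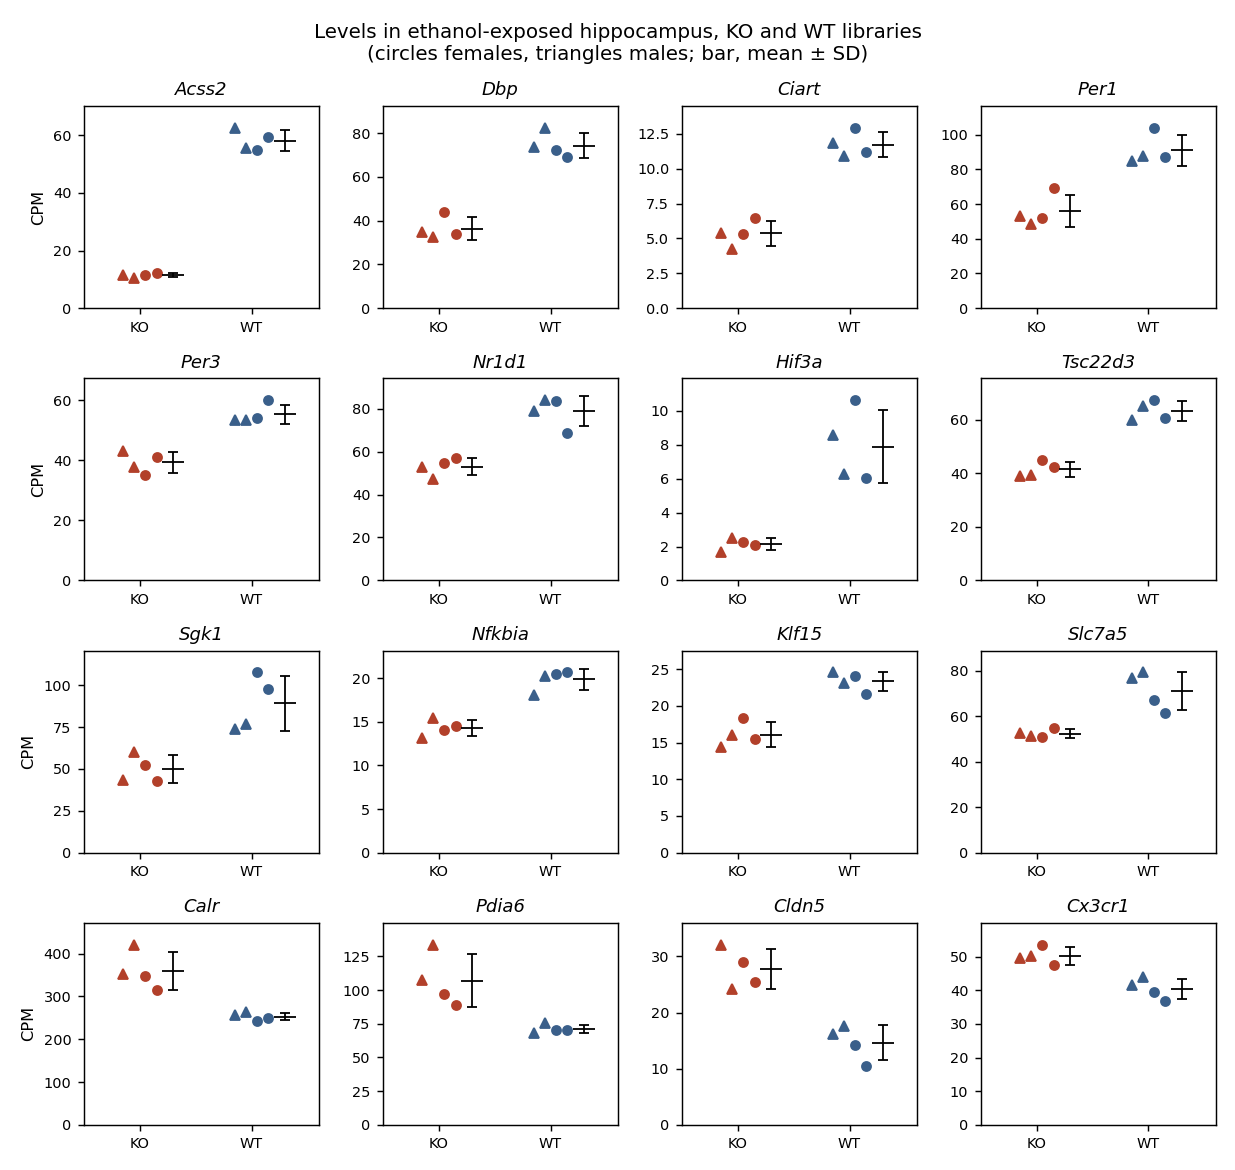
CPM (vertical axes, each from 0) of 16 called genes in ethanol-exposed hippocampus, with the 4 KO libraries left and the 4 WT libraries right in each panel, circles for females and triangles for males, and bars for mean ± SD. KO values lie below all WT values in the upper 3 rows (such as Dbp, 36.3 CPM in KO against 74.2 CPM in WT on average) and above them in the lowest row (such as Calr, 360 CPM in KO against 253 CPM in WT).

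Genes induced by glucocorticoids formed the second group of lower genes, in a list chosen with earlier results of these data known. Of 22 tested, 6 were called and all were lower in KO, 19 had negative fold changes and the median was -0.37. At an unadjusted p under 0.05, 14 were lower, against 4.60% of all genes. Pdk4, a kinase that restrains pyruvate dehydrogenase, was higher at that threshold (log2 fold change 0.31, adjusted p = 0.295). The list mean was 3.32 to 3.81 log2 CPM in KO libraries and 3.86 to 4.13 in WT libraries, without overlap. Per1 belongs to this list and to that of the clock.

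Hif3a, an alpha subunit of the hypoxia-inducible factors, had the largest fold change of the called genes after Acss2. It was at 1.68, 2.52, 2.25 and 2.09 CPM in KO M1, M3, F1 and F3, against 8.56, 6.27, 10.6 and 6.04 CPM in WT M1, M3, F1 and F3. The WT libraries varied more than the KO libraries, and the groups were well separated (log2 fold change -1.88 ± 0.23, adjusted p = 0.00352). Tsc22d3, which encodes the anti-inflammatory leucine zipper protein GILZ, was at 39.0, 39.5, 45.1 and 42.2 CPM in KO against 59.8, 65.3, 67.3 and 60.6 CPM in WT (log2 fold change -0.61 ± 0.093, adjusted p = 0.0132). Nfkbia, the inhibitor that holds NF-kappaB in the cytoplasm, averaged 14.3 ± 0.956 CPM in KO and 19.9 ± 1.24 CPM in WT (-0.48, adjusted p = 0.0132). It was the only call among 13 genes of NF-kappaB subunits and inhibitors, whose median was -0.029.

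Sgk1, a kinase that regulates ion channels and transporters, was at 43.6, 60.4, 52.4 and 42.9 CPM in KO M1, M3, F1 and F3, against 74.1, 77.0, 107.7 and 97.9 CPM in WT M1, M3, F1 and F3. Within WT both females were above both males, and the groups did not overlap (log2 fold change -0.83 ± 0.14, adjusted p = 0.0337). Map3k6, a stress-activated kinase, was at 1.28, 2.07, 1.36 and 1.30 CPM in KO against 2.98, 2.56, 3.39 and 6.53 CPM in WT (-1.33 ± 0.25, adjusted p = 0.0354). Both lost their calls in 7 of the 8 fits with 1 library left out. Fkbp5, a cochaperone of the glucocorticoid receptor, averaged 50.7 ± 6.70 CPM in KO and 66.9 ± 9.37 in WT (-0.40, adjusted p = 0.251), Plin4, a lipid droplet protein, 1.58 ± 0.969 in KO and 5.59 ± 2.02 in WT (-1.80, adjusted p = 0.0981), and Dusp1, a phosphatase of MAP kinases, 17.2 ± 3.74 in KO and 13.7 ± 1.70 in WT (0.31, adjusted p = 0.708). Klf15, a Kruppel-like factor that controls amino acid and glucose metabolism, is on no list here and averaged 16.1 ± 1.70 CPM in KO and 23.4 ± 1.30 in WT (-0.54, adjusted p = 0.0202).

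Chaperone genes were on the higher side in KO. Fold changes were positive in all 32 genes tested of the heat shock response and of the unfolded protein response, with a median of 0.22, and 2 were called, both higher in KO. At an unadjusted p under 0.05, 17 were higher and 0 lower, against 5.32% and 4.60% of all genes. The list mean was 6.17 to 6.61 log2 CPM in KO libraries and 6.09 to 6.17 in WT libraries. The lowest KO library, F3 (6.170), lay just above the highest WT library, F3 (6.169).

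Calr, the calcium-binding chaperone calreticulin, was at 353, 421, 349 and 316 CPM in KO M1, M3, F1 and F3, against 257, 263, 244 and 249 CPM in WT M1, M3, F1 and F3. KO M3 was the highest library and the WT libraries were tightly grouped (log2 fold change 0.51 ± 0.075, adjusted p = 0.0122). Pdia6, which forms and rearranges disulfide bonds in the endoplasmic reticulum, was at 107.7, 133.8, 96.9 and 88.7 CPM in KO against 67.9, 75.4, 70.1 and 70.6 CPM in WT (0.58 ± 0.093, adjusted p = 0.0173). The order of the KO libraries was the same for both genes, with M3 highest and F3 lowest. Pdia3, a related isomerase, averaged 198 ± 24.7 CPM in KO and 155 ± 6.94 in WT (0.36, adjusted p = 0.0639), and the cytosolic chaperone Hspa8 1687 ± 147 in KO and 1321 ± 108 in WT (0.35, adjusted p = 0.0769). Hspa5, the master chaperone of the endoplasmic reticulum, averaged 316 ± 83.8 CPM in KO and 204 ± 15.5 CPM in WT (0.62, adjusted p = 0.104), and Xbp1, a transcription factor of the unfolded protein response, 58.2 ± 10.4 in KO and 43.0 ± 2.77 in WT (0.43, adjusted p = 0.102).

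**Figure D4:**
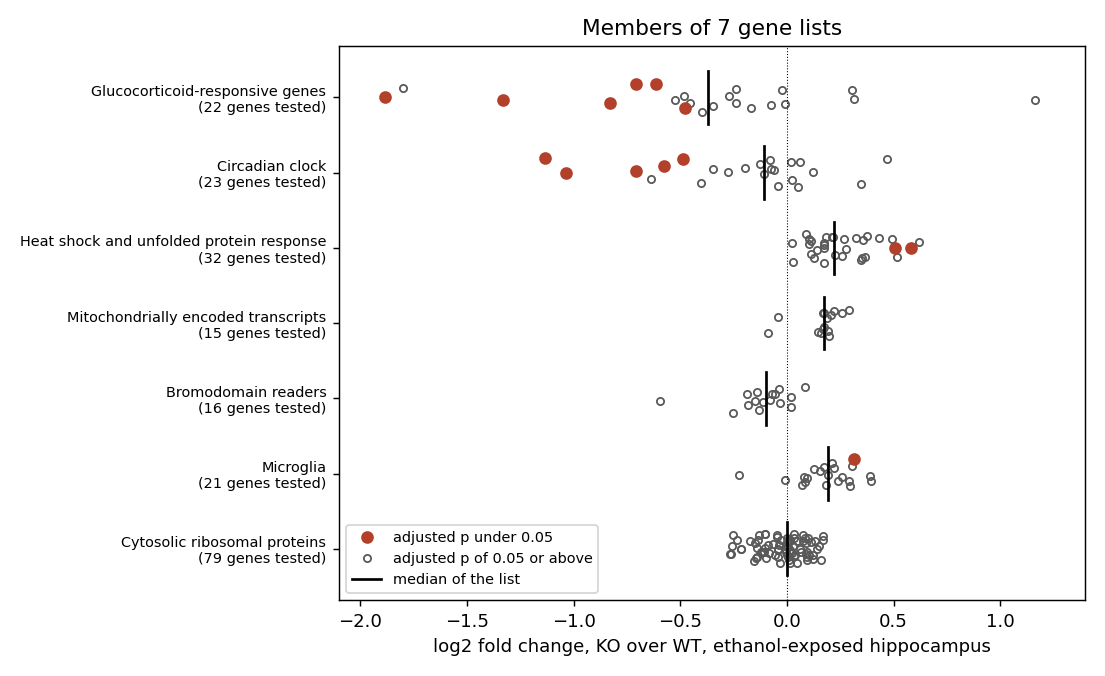
Log2 fold change of KO over WT in ethanol-exposed hippocampus (horizontal axis) for the members of 7 gene lists, 1 point per gene, with filled points for called genes and vertical lines for the list medians. Glucocorticoid-responsive genes lie mostly below 0 (median -0.37) and all 32 chaperone and unfolded-protein genes above 0 (median 0.22).

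Genes that mark single cell types gave few calls. Cldn5, the claudin of the tight junctions between brain endothelial cells, was at 32.1, 24.3, 29.1 and 25.5 CPM in KO M1, M3, F1 and F3, against 16.2, 17.6, 14.2 and 10.5 CPM in WT M1, M3, F1 and F3. All KO libraries exceeded all WT libraries (log2 fold change 0.94 ± 0.16, adjusted p = 0.0290). It was the only call among 18 endothelial markers, of which 9 had positive and 9 negative fold changes, with list means of 3.87 to 4.13 log2 CPM in KO and 3.81 to 4.09 in WT. Slc2a1, the glucose transporter of the blood-brain barrier, averaged 64.2 ± 9.34 CPM in KO and 86.0 ± 7.17 in WT (-0.42, adjusted p = 0.0815), and Kdr, a receptor for VEGF, 17.9 ± 3.53 in KO and 12.8 ± 0.725 in WT (0.48, adjusted p = 0.163).

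Cx3cr1, the fractalkine receptor of microglia, was at 49.4, 50.2, 53.5 and 47.4 CPM in KO M1, M3, F1 and F3, against 41.5, 43.8, 39.3 and 36.7 CPM in WT M1, M3, F1 and F3. The groups did not overlap, though the difference was small (log2 fold change 0.32 ± 0.061, adjusted p = 0.0459), and the call was lost in all 8 fits with 1 library left out. Among 21 microglia markers 19 were on the positive side (median 0.19), and 9 of them were higher at an unadjusted p under 0.05. The list mean was 4.07 to 4.34 log2 CPM in KO and 3.90 to 4.07 in WT libraries, with an overlap. The purinergic receptors P2ry12 and P2ry13 averaged 33.3 ± 2.75 and 10.97 ± 0.682 CPM in KO and 27.1 ± 1.36 and 8.34 ± 0.378 CPM in WT (adjusted p = 0.164 and 0.143), and Tyrobp, a signalling adaptor, had a log2 fold change of -0.22. Sox2, a transcription factor of neural stem cells and astrocytes, was at 47.0, 47.9, 47.1 and 40.1 CPM in KO and at 33.9, 35.2, 29.2 and 34.7 CPM in WT (0.45 ± 0.087, adjusted p = 0.0475). Astrocyte markers as a list had 12 of 18 positive fold changes and a median of 0.085.

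Choroid plexus markers had positive fold changes in 18 of 18 genes (median 0.46), blood cell markers in 6 of 6 (0.90) and markers of oligodendrocytes and myelin in 19 of 20 (0.12), and thalamic and habenular markers negative ones in 15 of 16 (-0.42). No gene of these 4 lists was called, and their KO and WT library means overlapped. WT F3 stood apart in the 4 thalamic and habenular markers with the smallest p. It held 1786 counts of Gpr151, 1355 of Pou4f1, 1171 of Tac2 and 806 of Irx2. No other of the 8 libraries exceeded 152, 32, 132 and 68 counts, in the same order. The median of this list ran from -0.73 to 0.09 over the 20 alternatives. The blood cell mean was 3.45, 3.66, 5.53 and 3.82 log2 CPM in KO M1, M3, F1 and F3, against 3.58, 3.37, 2.34 and 4.14 in WT M1, M3, F1 and F3, so that KO F1 stood apart, and without KO F1 the median of the list was -0.013. With the choroid plexus level as a covariate, added after seeing the data, 68 genes were called, including all 40. With the thalamic level as a covariate, added likewise, 52 were called, including 38 of the 40 (all but Cx3cr1 and Myo5b). Among the KO libraries, choroid plexus means were highest in M3 and F1. With both left out, a fit also added after seeing the data, 11 genes were called. All 11 were lower in KO and 0 were higher, and 7 were among the 40. That fit also rests on fewer libraries. The part of these tissues in the other results was not tested further.

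The remaining calls are named because they complete the 40. Rasal2, a Ras GTPase-activating protein, was at 96.5, 107.8, 100.5 and 122.0 CPM in KO M1, M3, F1 and F3, against 160, 171, 152 and 153 CPM in WT M1, M3, F1 and F3 (log2 fold change -0.58 ± 0.097, adjusted p = 0.0252). Polr3e, a subunit of RNA polymerase III, averaged 38.3 ± 1.85 CPM in KO and 53.5 ± 5.90 in WT (-0.48, adjusted p = 0.00949). Slc7a5, the large neutral amino acid transporter, was at 52.6, 51.3, 50.6 and 55.0 CPM in KO and at 76.8, 79.3, 67.2 and 61.4 CPM in WT (-0.44 ± 0.082, adjusted p = 0.0366). The KO libraries were close together for Slc7a5, and the WT males exceeded the WT females. Tet3, an enzyme that oxidises 5-methylcytosine, averaged 65.1 ± 3.40 CPM in KO and 84.5 ± 4.19 in WT (-0.38, adjusted p = 0.0459). Prr5, a subunit of the kinase complex mTORC2, averaged 3.99 ± 0.473 CPM in KO and 6.97 ± 0.417 CPM in WT (-0.80, adjusted p = 0.0290), and Xdh, the xanthine dehydrogenase of purine breakdown, 2.59 ± 0.560 CPM in KO and 5.13 ± 1.15 CPM in WT (-1.01, adjusted p = 0.0290).

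Fam83d, a protein of the mitotic spindle, averaged 1.80 ± 0.564 CPM in KO and 4.23 ± 0.717 in WT (log2 fold change -1.23, adjusted p = 0.0252), and it was the only call besides Acss2 within 10 Mb of Acss2, where 1 of 294 tested genes was called (0.34%). It lies 3.25 Mb from Acss2. The other lower genes were Ppp1r3g, a glycogen-targeting subunit of protein phosphatase 1 (-0.84), Tns2, a tensin of focal adhesions (-0.59), Fmo2, a flavin-containing monooxygenase (-1.33), Tspoap1, a RIM-binding protein of the presynaptic terminal (-0.38), Sall3 (-0.60) and Zfp276 (-0.40), which encode zinc finger proteins, and Inpp5j, an inositol phosphatase (-0.51). The other higher genes were Cysltr2, a leukotriene receptor at 0.881 ± 0.156 CPM in KO and 0.254 ± 0.0549 in WT (1.78), Ccdc190 (0.75), the motor protein Myo5b (0.59), the acetyltransferase family member Nat8f4 (0.57), Tprkb, a subunit of the KEOPS complex (0.49), Gsta4, a glutathione transferase that clears lipid aldehydes (0.40), and 3 genes with predicted names, 2810459M11Rik (0.53), Gm8355 (0.37) and Gm15459 (0.35). Gm8355 and Gm15459 are annotated as processed pseudogenes, and 38 of the 40 called genes as protein coding. Exons on the opposite strand cover 95.8% of Gm15459, 35.8% of Ccdc190, 16.6% of Zfp276 (with Fanca), 8.93% of Tprkb (with Nat8f1), 8.55% of Nr1d1 (with Thra) and 7.88% of Inpp5j (with Pla2g3), and the strand setting of the counting is not given in the sources used here.

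Of 20 genes of acetyl-CoA supply, those nearest to the enzyme's own chemistry, only Acss2 was called, and the median was 0.0086. Acss1, the mitochondrial acetate-activating enzyme, averaged 33.6 ± 3.92 CPM in KO and 30.4 ± 1.74 in WT (log2 fold change 0.14, adjusted p = 0.614), and Acly, which makes acetyl-CoA from citrate, 148 ± 2.86 in KO and 155 ± 14.4 in WT (-0.073, adjusted p = 0.824). All 9 genes of ethanol and aldehyde oxidation had positive fold changes (median 0.15), 5 were higher at an unadjusted p under 0.05 and none was called, the smallest p being that of catalase (Cat, 58.6 ± 6.43 CPM in KO against 50.3 ± 3.89 CPM in WT, adjusted p = 0.365). Their list mean was 4.66 to 4.87 log2 CPM in KO libraries and 4.40 to 4.65 in WT libraries, without overlap.

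Of 14 histone acetyltransferases and 18 histone deacetylases and sirtuins 0 were called, with medians of -0.053 and -0.057. At an unadjusted p under 0.05, 0 acetyltransferases were higher and 2 lower, and 1 deacetylase was higher (Hdac11, log2 fold change 0.22) and 4 lower. Bromodomain proteins, which bind acetylated histones, had negative fold changes in 13 of 16 genes (median -0.096), and 7 were lower at an unadjusted p under 0.05. Sterol synthesis (24 genes, median 0.057) and fatty acid synthesis (16 genes, median 0.040) gave 0 calls, with 4 and 3 genes at an unadjusted p under 0.05.

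Mitochondrially encoded transcripts had positive fold changes in 13 of 15 genes (median 0.17), with 8 higher at an unadjusted p under 0.05 and 0 called. mt-Nd2, a subunit of complex I, averaged 3099 ± 250.9 CPM in KO and 2531 ± 197 in WT (log2 fold change 0.29, adjusted p = 0.146). The 76 nuclear-encoded respiratory chain genes had a median of -0.031 and the 79 cytosolic ribosomal protein genes one of -0.00015. Each list had 0 calls, with 6 and 5 genes at an unadjusted p under 0.05, against 9.92% of all genes. Lists of synaptic vesicle proteins (26 genes, median 0.021), ionotropic glutamate receptors (17, -0.078), GABA-A receptor subunits (14, 0.018) and potassium channels (26, -0.035) also gave 0 calls, and 4, 1, 0 and 4 genes at an unadjusted p under 0.05. Of 41 activity-regulated genes Per1 alone was called, and lower. Npas4, an activity-induced transcription factor, averaged 10.6 ± 0.998 CPM in KO and 6.86 ± 0.560 in WT (0.63, adjusted p = 0.0776), and Fos 14.8 ± 5.24 in KO and 8.47 ± 1.89 in WT (0.77, adjusted p = 0.265). Interferon-response genes had positive fold changes in 20 of 23 genes (median 0.21) and 0 calls, with 6 higher at an unadjusted p under 0.05.

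The same comparison in saline-exposed hippocampus, which shares no library with that in ethanol, called 1 gene of the 23394 (0.00427%). It was Acss2, at 12.6 ± 1.08 CPM in KO and 53.3 ± 3.47 in WT (log2 fold change -2.08, adjusted p = 7.27e-11). DESeq2 called 195 genes there, and the edgeR test 92 without WT saline M1 and 2 without KO saline F1, so the single call depended on the tool and on the library. Of the 40 genes called after ethanol, 10 of the 14 higher and 5 of the 26 lower had the same sign after saline, against 48.3% of all genes tested. The lower genes had a median log2 fold change of 0.15 after saline and the higher genes one of 0.097.

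The values of the leading genes show this directly. Per1 averaged 83.7 ± 3.94 CPM in KO and 77.1 ± 18.4 in WT after saline (log2 fold change 0.14), Tsc22d3 61.1 ± 11.9 in KO and 49.8 ± 3.03 in WT (0.29), Sgk1 85.5 ± 7.23 in KO and 67.3 ± 11.7 in WT (0.36), and Hif3a 5.16 ± 1.56 in KO and 4.54 ± 1.04 in WT (0.16). None of these 4 passed in saline. Dbp, Ciart and Nr1d1 had negative fold changes after saline as well, of -0.30, -0.23 and -0.16, and did not pass. Calr averaged 271 ± 13.7 CPM in KO and 249 ± 19.6 in WT (0.13), and Pdia6 72.6 ± 4.81 in KO and 66.8 ± 3.08 in WT (0.12). By medians, the glucocorticoid list stood at 0.19, the clock list at 0.085, the chaperone list at 0.021 and the mitochondrially encoded transcripts at -0.18 after saline.

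Whether the KO effect differed between exposures was tested by the interaction, which called 41 genes (0.175%), 9 with a higher and 32 with a lower log2 fold change after ethanol. This test uses the same ethanol libraries, so it is not independent of the comparison above. Among the 40 genes it called 15 of the 26 lower and 2 of the 14 higher ones. They were Hif3a (difference of log2 fold changes -2.04, adjusted p = 0.0264), Map3k6 (-1.89), Fam83d (-1.67), Sgk1 (-1.18), Ppp1r3g (-1.11), Prr5 (-1.04), Tsc22d3 (-0.91, adjusted p = 0.0223), Per1 (-0.84, adjusted p = 0.0493), Rasal2 (-0.83), Polr3e (-0.74, adjusted p = 0.0157), Slc7a5 (-0.68), Nfkbia (-0.66, adjusted p = 0.0247), Tet3 (-0.65), Per3 (-0.63, adjusted p = 0.0247), Zfp276 (-0.59), Sox2 (0.67) and Ccdc190 (0.85). For Dbp (-0.74, adjusted p = 0.0725), Ciart (-0.90, adjusted p = 0.108), Calr (0.38, adjusted p = 0.195) and Pdia6 (0.46, adjusted p = 0.204) a difference between exposures did not pass.

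Of the 5 genes with the smallest interaction p, Lamc1 and Zfp366 were not called in either exposure. Lamc1, the gamma 1 chain of laminins, averaged 38.2 ± 3.11 CPM in KO and 46.2 ± 1.00 in WT after ethanol, and 44.4 ± 1.49 in KO and 35.1 ± 2.11 in WT after saline (difference -0.61 ± 0.088, adjusted p = 0.0223). Zfp366, a zinc finger protein, averaged 5.08 ± 1.11 CPM in KO and 8.69 ± 1.03 CPM in WT after ethanol and 8.80 ± 1.13 CPM in KO and 5.26 ± 1.02 CPM in WT after saline (-1.52 ± 0.23, adjusted p = 0.0247). The interaction count depended on every library: it ranged from 0 to 24 with 1 of the 16 left out, and it was 0 without WT ethanol F1 or KO saline M3.

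**Figure D5:**
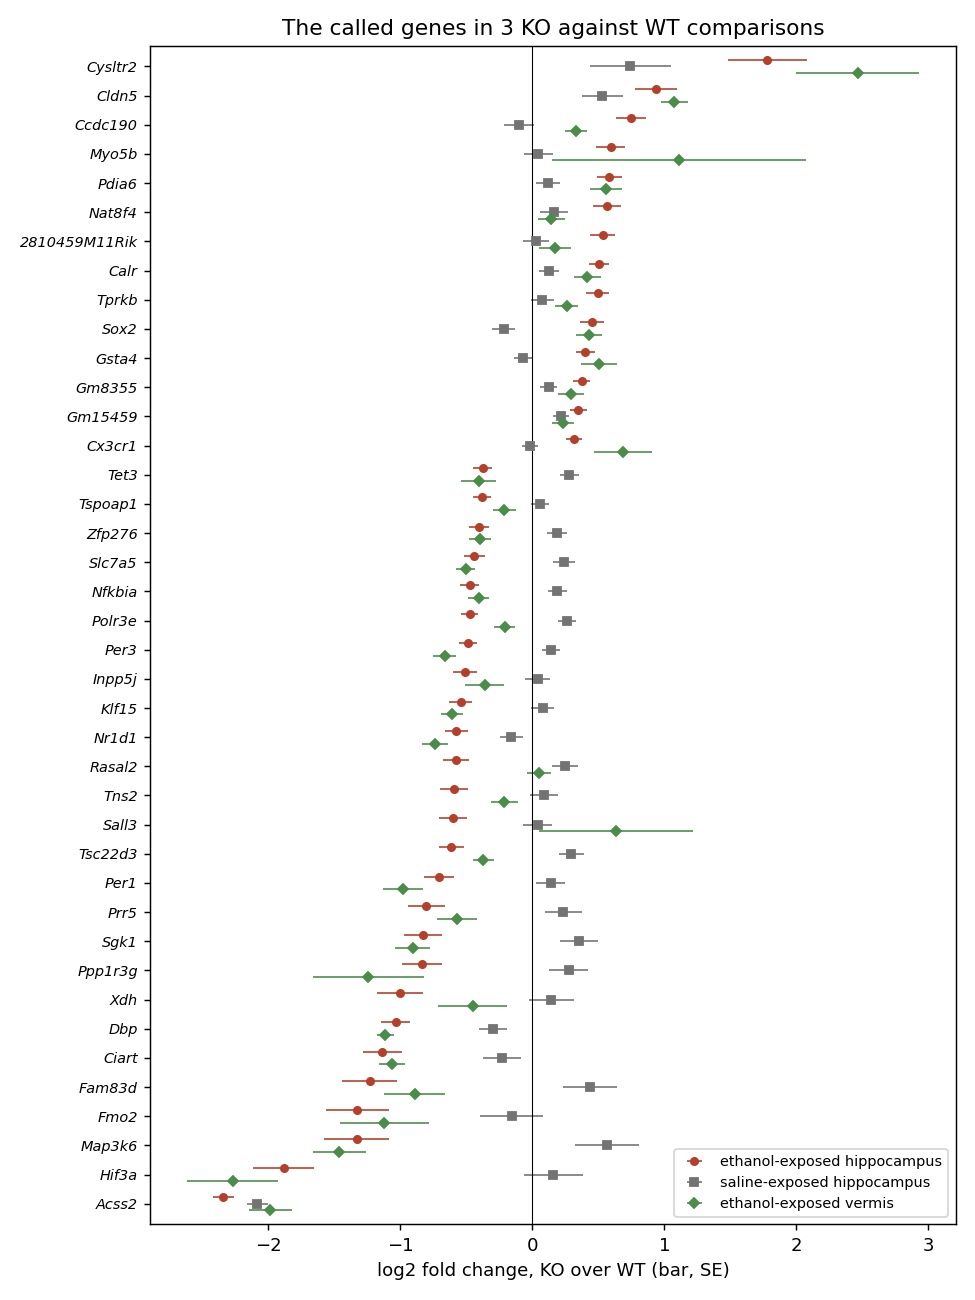
Log2 fold change of KO over WT with its SE (horizontal axis) for the 40 called genes, ordered by the value in ethanol-exposed hippocampus (circles), beside saline-exposed hippocampus (squares) and ethanol-exposed vermis (diamonds). Most of the 26 lower genes lie right of 0 after saline, and 38 of the 40 have the same sign in vermis as in hippocampus after ethanol.

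In the vermis of the same ethanol-exposed mice, the comparison of KO with WT called 1690 of 22441 genes (7.53%), 1287 higher and 403 lower. All 40 hippocampal genes were tested there, 38 had the same sign, against 58.4% of the 21645 genes tested in both tissues, and 23 were called, 7 of the 14 higher and 16 of the 26 lower. The libraries are separate but come from the same animals, so an effect of the animal would be shared. The vermis count was 973 without WT M1, 1045 without WT F3, 1042 without KO M3 and 5092 without KO F3. KO F3 was the shallowest of the ethanol-exposed vermis libraries, with 23085928 total counts. The others ran from 41178611 (KO M1) to 61881332 (WT F3). Dbp averaged 49.5 CPM in KO and 107 in WT vermis (log2 fold change -1.11, adjusted p = 1.37e-07), Ciart 7.77 in KO and 16.2 in WT (-1.06), Per1 54.4 in KO and 107 in WT (-0.98) and Hif3a 2.19 in KO and 10.6 in WT (-2.27, adjusted p = 0.000752). Sgk1 averaged 36.2 CPM in KO and 68.6 CPM in WT (-0.91), and Cldn5 43.1 CPM in KO and 20.5 CPM in WT (1.08, adjusted p = 5.33e-06). The medians of the glucocorticoid, clock and chaperone lists had the signs of the hippocampus, at -0.42, -0.20 and 0.29. Some other lists changed sign. The median of nuclear-encoded respiratory chain genes was -0.031 in hippocampus and 0.50 in vermis, and that of thalamic and habenular markers -0.42 and 0.098.

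The difference of the KO effect between tissues, hippocampus minus vermis with the mouse as a block, was called for 585 of 24458 genes (2.39%; 358 without WT M1 and 369 without WT F3), and for 1 of the 40, Rasal2. Its log2 fold change was -0.58 in hippocampus and 0.051 in vermis (difference -0.61 ± 0.13, adjusted p = 0.0129). The 5 genes with the smallest p were ribosomal, led by Rps14 and Rps12. Rps14 averaged 58.9 ± 2.68 CPM in KO and 70.3 ± 6.51 in WT hippocampus and 140 in KO and 49.8 in WT vermis (difference -1.73, adjusted p = 1.14e-06). Rps12 averaged 39.7 ± 4.15 CPM in KO and 43.8 ± 3.53 CPM in WT hippocampus and 84.5 in KO and 32.6 in WT vermis (-1.49). The ribosomal list had a median of -0.00015 in hippocampus and 0.82 in vermis.

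Whether the KO effect in ethanol-exposed hippocampus differed between males and females was tested with 2 libraries of each sex and genotype. With edgeR 0 genes passed (1070 had an unadjusted p under 0.05, and DESeq2 called 1; the edgeR count was 3 without WT F1). The smallest p were those of Gstm1, Ccar1, Xist, Cdh24 and Mt2. For Xist the male side rests on very few counts, 8 and 0 in KO M1 and M3 and 32 and 30 in WT M1 and M3. Gstm1, a glutathione transferase, had a log2 fold change of -0.011 in males and 0.56 in females (difference -0.57 ± 0.12, adjusted p = 0.999), and Ccar1, a regulator of the cell cycle and apoptosis, one of 0.19 in males and -0.30 in females (0.49 ± 0.11, adjusted p = 0.999). With 2 libraries a combination, this design can miss differences that exist.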

How the data were processed

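PolyA RNA was sequenced from dorsal hippocampus and cerebellar vermis of 16 mice. The authors deposited unnormalised counts of 56415 genes in 32 libraries, and counts per transcript model, used here for Acss2. The submitters' processing notes name GRCm39 and, with no order, featureCounts 2.0.6, STAR 2.7.10a, DESeq2, bcl2fastq and cutadapt 5.0. They give no strand setting. Of the counts from 1 to 20 in the 8 libraries 86.6% to 88.2% were even, so both mates of a read pair added to a count and counting errors computed from raw totals would be too small.

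Tests were run with edgeR 4.0.16 (limma 3.58.1, R 4.3.3). Plots were made with matplotlib 3.10.9 under Python 3.11.15. The 16 hippocampal libraries were fitted together, so that the spread was estimated over all 4 groups, after filterByExpr by group and TMM scaling, with robust quasi-likelihood tests, sex as a covariate and Benjamini-Hochberg adjustment at 0.05. The ethanol and saline comparisons and their interaction came from this fit, the vermis comparison from the same fit of 16 vermis libraries, the tissue difference from 32 libraries with the mouse as a block, and the sex difference from a model of sex by group cells. Log2 CPM used a prior count of 2, and a 0 was taken to allow 3 counts, which is too few where both mates of a pair add to a count. The pipeline was tested on simulated data. P-values measure the spread between mice, which the labels give as separate animals and the tests treat as independent. Litters and cages are not given, so mice of a group may share them. The p-values do not measure a spread between litters or cages. No pair of libraries within a group was a copy of another: divided by its degrees of freedom, the chi-square between them was 13.2 to 73.0 over genes with at least 20 counts in the pair.

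The rule for named genes took, in each direction, up to 15 called genes by smallest p whose mean reached 1 CPM and whose name is not a predicted one, then Acss2, up to 4 members of each list described, and the 5 genes with the smallest p of the interaction, tissue and sex tests. The other called genes and some further list members were named after their values were seen. The members and lists were chosen with earlier results of these data known. Alternatives were scaling by RLE, DESeq2 1.42.0, leaving out the filter or the sex term, sex by group cells, a replicate block, only the 8 libraries compared, a length offset (lowess span of 0.3), protein-coding genes only, and each library left out. Covariates for choroid plexus and thalamic markers, and leaving out KO M3 and F1 together, were added after seeing the data. Gene coordinates are those of the deposited table (GRCm39, first listed exon). Promoter windows come from RefSeq on GRCm38 and were joined by symbol only. Exon overlaps come from GENCODE M21 on GRCm38 and were joined by Ensembl ID.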

Additional observations from a re-analysis of the deposited data

Results flagged for a closer look

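Among the 172 groups of 4 libraries examined (the called genes and the list means in KO and in WT), 12 held a library whose gap to its nearest neighbour was large against the group's range (Dixon's test), and chance gives about 1 in 20. Among single genes these were KO M3 for Gm8355 (152 CPM) and Map3k6 (2.07 CPM), KO F3 for Sox2 (40.1 CPM), WT F3 for Per3 (60.0 CPM), WT M1 for Nfkbia (18.0 CPM), and WT F1 for Per1 (103.9 CPM) and Tns2 (19.7 CPM). Among list means in log2 CPM they were KO F1 for monocarboxylate transport (5.16) and NF-kappaB subunits and inhibitors (3.64), KO M3 for the proteasome (5.96) and CA1 pyramidal neurons (5.36), and WT F1 for proliferation and newborn neurons (3.42).

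The KO effect differed between ethanol and saline, by the interaction test, for 17 of the 40 genes, against 41 of all 23394 genes (0.175%). The 40 genes were chosen on the ethanol libraries that this test also uses, so a high share among them is partly fixed by that choice. The interaction called 0 genes without WT ethanol F1 or without KO saline M3. The difference of log2 fold changes, ethanol minus saline, was -2.04 for Hif3a, -1.89 for Map3k6, -1.67 for Fam83d, -1.18 for Sgk1, -1.11 for Ppp1r3g and -1.04 for Prr5. It was -0.91 for Tsc22d3, -0.84 for Per1, -0.83 for Rasal2, -0.74 for Polr3e, -0.68 for Slc7a5, -0.66 for Nfkbia, -0.65 for Tet3, -0.63 for Per3 and -0.59 for Zfp276, and it was positive for Ccdc190 (0.85) and Sox2 (0.67). Of the genes with the smallest interaction p, Lamc1 (-0.61) and Zfp366 (-1.52) also differed between exposures.

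Between hippocampus and vermis the KO effect differed for Rasal2, by -0.61 on the log2 scale (hippocampus minus vermis), and for the ribosomal protein genes Rps14 (-1.73), Rps12 (-1.49), Rps27 (-1.56), Rps23 (-1.15) and Rpl34 (-1.44).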

How the results depend on the processing

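Of the 40 calls, Acss2, Dbp and Hif3a passed in all 20 alternatives, Ciart and Polr3e in 19, and Per3 in 18. Over all 40 genes and their alternatives, calls held in 497 cases and were lost in 301. The count for ethanol-exposed hippocampus was 233 with DESeq2, 430 with no low-count filter, 8 with only the 8 libraries compared, 68 with the choroid plexus level as a covariate and 11 with KO M3 and KO F1 both left out. For saline-exposed hippocampus it was 195 with DESeq2, 633 with no filter and 2 with only its 8 libraries, and for the interaction 272 with DESeq2, 688 with no filter, 23 with no sex term and 14 with sex by group cells. DESeq2 gave 3013 in vermis, 1043 for tissue and 1 for sex, and no filter gave 109 for sex. The fit with 8 libraries has fewer degrees of freedom by construction, and the cause of the other shifts was not tested.

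With 1 library left out the counts ran from 6 to 29 in ethanol-exposed hippocampus, 1 to 92 after saline, 0 to 24 for the interaction, 973 to 5092 in vermis, 358 to 822 for tissue and 0 to 3 for sex. The low ethanol counts were those without WT M1 (7), WT M3 (6) and WT F1 (7), and the high saline count that without WT saline M1. Median fold changes of the glucocorticoid, clock and bromodomain lists stayed negative and those of the chaperone, mitochondrially encoded, microglia and ethanol oxidation lists positive in all 20 alternatives, whereas those of the choroid plexus list ran from -2.76 to 1.28, of blood cells from -0.013 to 1.34, of thalamic markers from -0.73 to 0.09, of oligodendrocytes from -0.31 to 0.29 and of interferon-response genes from -0.11 to 0.34.

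Replicate labels are shared by the groups but name different mice. Deviations of same-labelled libraries from their group means correlated at -0.0858 (M1), -0.248 (M3), -0.0382 (F1) and -0.283 (F3), so no pairing by label was seen. A pairing that touches only some genes might not show in such a correlation. With the label as a replicate block 30 genes were called (7 higher, 23 lower), 27 of them among the 40, and the interaction gave 32. A gene at 1 CPM rests on 54.1 counts in the shallowest library.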
